A study of Mus musculus with 6 samples.

Results

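The 10 genes described here are Atf4, Atf3, Ddit3, Trib3, Asns, Chac1, Psat1, Phgdh, Mthfd2 and Shmt2, which encode the transcription factor ATF4 of the integrated stress response and 9 genes it acts with or through. They were chosen by gene symbol. All 10 were among the 16538 genes of the deposited RNA-Seq table, and all 10 passed the filter on low values that left 13855 genes for testing. The study profiled inguinal fat (iWAT), a white depot under the skin in which beige adipocytes form in the cold. Control mice ("wt" in the labels, fl/fl littermates in the paper) were compared with NRG4-AKO mice, in which Adiponectin-Cre deletes Nrg4, the gene of a hormone secreted by fat, in adipocytes only. Both groups were held at 8 °C, for 10 days according to the labels. The period differs between the labels and the paper, which gives a longer one. Each group had 3 samples, and each sample was RNA pooled from 2 mice of 1 genotype. The labels give neither the age nor the sex of the mice. The question asked of the genes was whether the lower mitochondrial genes of AKO iWAT come with a mitochondrial stress response.

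In the integrated stress response, the kinases HRI, PKR, PERK and GCN2 phosphorylate the translation factor eIF2α, which slows protein synthesis in general but lets ribosomes translate Atf4 mRNA through its upstream open reading frames. A mitochondrial defect can reach HRI through the protease OMA1 and the messenger protein DELE1, and genes of serine and one-carbon metabolism are among those that ATF4 then switches on. Because ATF4 is controlled mainly by translation, the mRNA of its target genes is the usual readout in RNA-Seq, and the level of Atf4 mRNA does not measure ATF4 protein.

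ATF4 binds a composite element shared with C/EBP factors, the C/EBP-ATF response element (CARE). The letters TGATGNAA were searched on both strands (TTNCATCA on the other) in RefSeq windows of 300 bases, 250 before and 50 after each transcription start, on the build GRCm38.p6. Each of the 10 genes had at least 1 window. A match was found in 4 of their 11 windows, from 4 of the genes, as against 3.97% of all 32851 windows. The 4 matches are shown as letters of this element, and whether ATF4 binds them was not tested. Each is given with 11 bases on either side, 5′ to 3′ on the strand of its gene, with the 8 matching bases in capitals. The Asns match (chr6:7693214-7693243, minus strand) begins 23 bases before the RefSeq start, inside an exon of the GENCODE annotation. The Atf3 match (chr1:191183425-191183454, minus strand) begins 110 bases before it, in an intron of a longer GENCODE transcript. The Chac1 match (chr2:119351038-119351067, plus strand) begins 193 bases before it, upstream of the gene. The Trib3 match (chr2:152344028-152344057, minus strand) lies 14 to 21 bases after the RefSeq start, which is itself upstream of the GENCODE gene.
Asns: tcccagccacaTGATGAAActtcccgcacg
Atf3: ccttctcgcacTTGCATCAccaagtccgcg
Chac1: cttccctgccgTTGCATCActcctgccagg
Trib3: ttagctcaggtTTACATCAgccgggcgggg
The cyclic AMP response element TGACGTCA, which reads the same on both strands, was in none of the 11 windows of the 10 genes and in 1.79% of all windows. A match describes the letters only, and a window without one says nothing about binding elsewhere.

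The AKO samples showed no called difference in any of the 10 genes. With limma on log2(normalized count + 1), 0 of 10 had a Benjamini-Hochberg adjusted p under 0.05, as against 2 of the 13855 genes tested (0.0144%). Before adjustment, 1 of 10 (Ddit3, lower in AKO) had a p under 0.05, near the 9.10% of all genes that did so in either direction. Ddit3 was also the only 1 of 10 whose groups did not overlap, where 14.5% of all genes had groups that did not overlap. edgeR called 0 of the 10, and so did DESeq2 on the reads recovered from the table, which called 149 of 14923 genes (0.998%). The log2 fold changes of AKO against control were negative for 7 genes and positive for 3, between -0.28 and 0.23, with a median of -0.04 where the median of all genes tested was 0.01. The 95% intervals bound what these samples could hold. For 7 of the 10 genes the whole interval lay within a 1.5-fold change in either direction, and for 9 it lay within a 2-fold change.

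**Figure D1:**
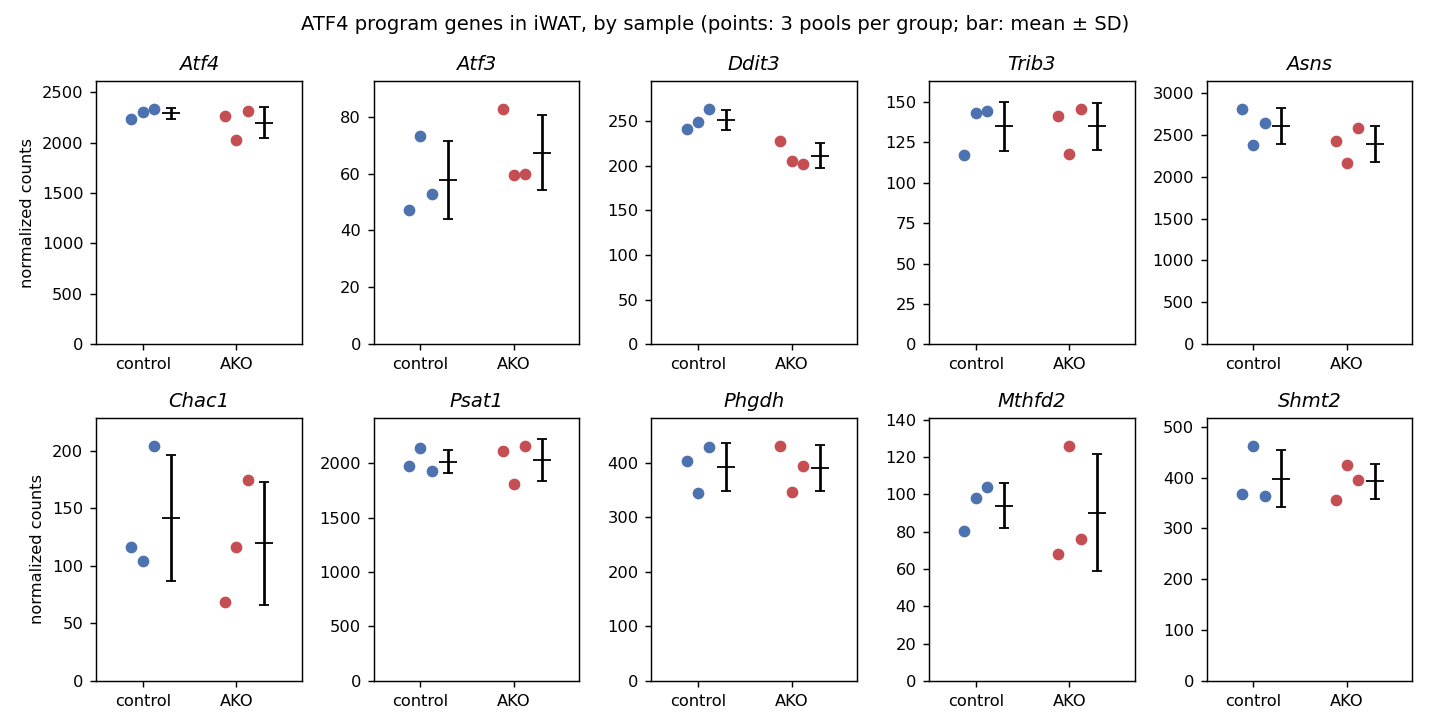
Normalized counts (vertical axes, from 0, a separate scale per gene) of the 10 genes in the 3 control and 3 AKO samples, with the mean and SD of each group as a bar. The points of the groups interleave for every gene except Ddit3, whose 3 AKO samples sit between 201.5 and 227.6, under the lowest control sample at 240.8.

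The 6 libraries held 17570335 to 18373707 reads each over the genes of the table. The table gives normalized counts, the reads of a gene divided by a size factor, so 1 unit is close to 1 read. Nrg4 had 3128, 3102 and 3092 normalized counts in control and 2577, 2627 and 2691 in AKO, a log2 fold change of -0.24 (standard error 0.05, limma adjusted p = 0.298) that was not called. Reads of all its exons are summed, so this value does not check the deletion itself. By qPCR, the paper found almost no Nrg4 mRNA in the iWAT and brown fat of AKO mice. Adipocyte markers made up 508115 to 529003 normalized counts in the control samples and 434740 to 498513 in AKO, with none of the 8 at 0. Skeletal muscle markers varied most, from 753 in control replicate 1 to 30467 in the other control samples and from 22628 to 129963 in AKO. In bulk tissue, fewer cells of a type and less RNA per cell cannot be told apart. The labels do not say how the pools were drawn beyond genotype, and the tests measure the spread between these pools.

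Of the transcription factors, Atf4, on chromosome 15 (GRCm38, 80255184 to 80257541), had 2230, 2307 and 2331 normalized counts in control and 2261, 2022 and 2312 in AKO. AKO replicate 2 was the lowest of the 6, and the other AKO samples fell among the controls. The means were 2289 ± 52.8 (SD, n = 3) and 2198 ± 155 (SD, n = 3), with a log2 fold change of -0.06 (95% interval -0.22 to 0.10, limma adjusted p = 0.846). In linear terms the AKO level lay between 0.859 and 1.07 times the control level, the narrowest interval of the transcription factors.

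Ddit3 encodes CHOP, a factor that ATF4 induces under lasting stress. Its gene lies on chromosome 10 (127290774 to 127296288). The counts were 240.8, 249.5 and 263.3 in control and 227.6, 205.0 and 201.5 in AKO, so that every AKO sample was under every control sample. The mean was 15.9% lower in AKO (251 ± 11.3 against 211 ± 14.2, SD, n = 3, exact permutation test, p = 0.1, the smallest p that 3 against 3 samples allow). The log2 fold change was -0.25 (standard error 0.09, 95% interval -0.46 to -0.03), and the adjusted p was 0.510 with limma and 0.974 with DESeq2. The difference did not pass the adjusted test. The spread of Ddit3 within groups (5.71% of the mean) was smaller than the counting error at its level (6.58%), so its SD may be too low. The interval comes from limma, where the variance of a gene also draws on the trend over all genes. Of the exonic bases of Ddit3, 4.73% are shared with Mars and Gm4189 on the opposite strand, and 2 gene identifiers carry its symbol in GENCODE. Mars, a tRNA synthetase gene, had a log2 fold change of -0.02 (limma adjusted p = 0.972).

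Atf3, a factor induced by ATF4 and also by many other acute stimuli, was the only 1 of the 3 transcription factors with a positive difference. Its gene lies on chromosome 1 (191170296 to 191218039). It had 47.2, 73.1 and 52.9 normalized counts in control and 82.6, 59.6 and 59.8 in AKO. AKO replicate 1 held the highest value, and the other 2 AKO samples lay inside the control range. The log2 fold change was 0.23 (95% interval -0.28 to 0.74, limma adjusted p = 0.821). Without AKO replicate 1 it was 0.07, and without control replicate 2 it was 0.41. At 47 to 86 reads per sample, counting error alone was 12.6% of the mean, and the spread within groups was 21.7%. A rise of up to 1.67 times lay inside the interval.

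Trib3 and Chac1 are target genes that respond strongly to ATF4. Trib3 (chromosome 2, 152337422 to 152344032) encodes a pseudokinase that dampens ATF4 and CHOP. It had 117.4, 143.0 and 144.3 normalized counts in control and 141.2, 118.1 and 145.6 in AKO. Both groups therefore held 1 sample near 118 and 2 between 141 and 146, and both means were 135. The log2 fold change was 0.00 (95% interval -0.32 to 0.32, limma adjusted p = 0.9997).

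Chac1 (chromosome 2, 119351229 to 119354381) encodes an enzyme that degrades glutathione. It was the most variable of the 10, with 116.4, 104.3 and 204.3 normalized counts in control and 68.2, 116.2 and 174.5 in AKO. The coefficient of variation was 38.5% in control and 44.5% in AKO, where counting error accounts for 8.74%. The log2 fold change of -0.28 had the widest interval (-1.12 to 0.56, limma adjusted p = 0.877), from 0.461 to 1.48 times the control level. It became 0.07 without AKO replicate 1, 0.02 without control replicate 3 and -0.60 without AKO replicate 3. Smaller changes of Chac1 than these bounds were not detectable in these samples.

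**Figure D2:**
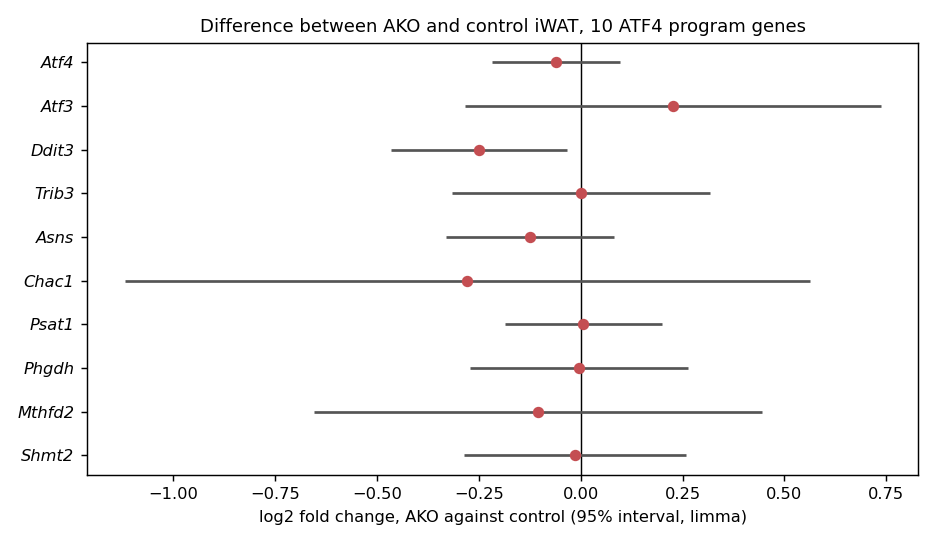
Log2 fold changes of AKO against control (horizontal axis; points) with 95% intervals from limma (lines) for the 10 genes. The interval of Ddit3 ends at -0.03, the other 9 intervals cross 0, and those of Chac1, Mthfd2 and Atf3 are the widest.

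Asns, Psat1 and Phgdh make amino acids. Asns (chromosome 6, 7675169 to 7693254) encodes asparagine synthetase, a classical ATF4 target. The control samples had 2807, 2382 and 2638 normalized counts and the AKO samples 2433, 2166 and 2587. The AKO samples were interleaved with the controls, with AKO replicate 2 again the lowest, and the log2 fold change was -0.12 (95% interval -0.33 to 0.08, limma adjusted p = 0.735). An increase of more than 1.06 times lay outside this interval.

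Phgdh (chromosome 3, 98313170 to 98339990) and Psat1 (chromosome 19, 15904678 to 15947337) encode the first and the second enzyme of serine synthesis. Psat1 had 1972, 2136 and 1931 normalized counts in control and 2115, 1807 and 2157 in AKO. Its log2 fold change was 0.01 (95% interval -0.19 to 0.20, limma adjusted p = 0.993). Phgdh had 403.4, 344.1 and 429.0 in control and 431.2, 346.6 and 394.3 in AKO, which gave a log2 fold change of -0.01 (95% interval -0.27 to 0.26, limma adjusted p = 0.995). In Phgdh the lowest and the highest AKO samples lay close to the ends of the control range. In Psat1 the highest AKO sample did so, and the lowest, at 1807, lay below the lowest control sample at 1931. The group means were 2013 and 2026 for Psat1 and 392 and 391 for Phgdh.

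Mthfd2 and Shmt2 act in the one-carbon pathway inside mitochondria, which in mouse models of mitochondrial disease is an early part of the stress response. Mthfd2 (chromosome 6, 83305691 to 83325908) encodes a methylenetetrahydrofolate dehydrogenase that is low in most adult tissues. It had 80.3, 97.9 and 103.7 normalized counts in control and 68.2, 125.9 and 76.2 in AKO. AKO replicates 1 and 3 were below all controls and AKO replicate 2 was above them. The log2 fold change was -0.10 (95% interval -0.65 to 0.45, limma adjusted p = 0.939). It was -0.37 without AKO replicate 2 and 0.07 without AKO replicate 1. AKO replicate 2 also had the highest summed level of lymphocyte markers (1380 normalized counts, with 180 and 214 in the other AKO samples). Control replicate 1, with 984 against 185 and 192 in the other controls, had the lowest Mthfd2 of its group. The part of lymphocytes in the Mthfd2 level was not tested.

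Shmt2 (chromosome 10, 127517123 to 127522444) encodes the mitochondrial serine hydroxymethyltransferase. It had 367.3, 462.4 and 363.9 normalized counts in control and 356.3, 425.7 and 396.2 in AKO, which gave a log2 fold change of -0.01 (95% interval -0.29 to 0.26, limma adjusted p = 0.987). The ranges of the groups overlapped almost fully. Of its exonic bases, 1.03% are shared with Ndufa4l2 on the opposite strand.

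The levels of the 10 genes can be compared with each other only per length. In normalized counts per kilobase of exon, the control means were 971 for Atf4, 954 for Asns, 473 for Psat1, 158 for Phgdh, 147 for Ddit3, 128 for Shmt2, 86.5 for Chac1, 63.5 for Trib3, 26.9 for Mthfd2 and 26.8 for Atf3. In AKO the means followed the same order, except that Atf3 (31.2) was above Mthfd2 (25.8) and Shmt2 (126) above Ddit3 (123). In both groups, the lowest Asns sample was above the highest Psat1 sample, the lowest Psat1 above the highest Phgdh, and the lowest Trib3 above the highest Mthfd2 and Atf3. Atf4 and Asns, Ddit3 and Shmt2, Chac1 and Trib3, and Mthfd2 and Atf3 overlapped between samples in both groups, so their order is not resolved. The mRNA of Atf4 and Asns was thus the most abundant of the 10 in both groups, and that of Atf3 and Mthfd2 the least.

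The samples at the ends of the range differed from gene to gene. AKO replicate 2 was the lowest of the 6 samples for Atf4, Asns and Psat1 and the highest for Mthfd2. AKO replicate 1 was the lowest for Chac1, Mthfd2 and Shmt2 and the highest for Atf3 and Phgdh, and AKO replicate 3 was the lowest for Ddit3 and the highest for Trib3 and Psat1. Among the controls, replicate 1 was the lowest of all 6 for Atf3 and Trib3 and replicate 3 the highest for Atf4, Ddit3 and Chac1. The highest of the 6 samples was a control for 5 genes and an AKO sample for 5. Within its own group, AKO replicate 2 was the lowest for 6 of the 10 genes (Atf4, Atf3, Trib3, Asns, Psat1 and Phgdh), and control replicate 3 was the highest for 6.

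Within groups, 9 of the 10 varied by more than their counting error, and Ddit3 by less. The spread was 4.76 times the counting error for Chac1, 4.28 times for Asns, 3.45 times for Psat1 and between 1.29 and 2.52 times for Atf4, Atf3, Trib3, Phgdh, Mthfd2 and Shmt2. Counting error was 12.6% of the mean for Atf3 and 10.4% for Mthfd2, the highest of the 10.

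Read as bounds on induction, the upper ends of the 95% intervals were 0.977 times the control level for Ddit3, 1.06 for Asns, 1.07 for Atf4, 1.15 for Psat1, 1.20 for both Phgdh and Shmt2, and 1.25 for Trib3. They were wider for Mthfd2 (1.36), Chac1 (1.48) and Atf3 (1.67), the genes with the fewest reads or the largest spread. edgeR gave adjusted p-values between 0.506 for Ddit3 and 0.994 for Shmt2, and DESeq2 between 0.974 and 0.9995.

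The other genes of the ATF4 program were given by 4 further lists with 67 genes, of which 64 were tested. limma called 0 of the 64, edgeR called 0 and DESeq2 called 1, Cebpb (DESeq2 called 0.998% of all genes). Before adjustment 7 were lower and 2 higher at a p under 0.05, and the median log2 fold change was -0.04, with 39 negative and 25 positive. Of all 13855 genes tested, 4.69% were lower at a p under 0.05, and 611 genes were higher at that p. An AKO range wholly below the control range was found for 8.31% of all genes and for 9 of the 64.

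Of the genes for ATF4 feedback, partners and secreted products, 19 of 20 were tested. An unadjusted p under 0.05 was found for 2, both lower in AKO (4.69% of all genes were lower at that p). Cebpb, which encodes a C/EBP factor active in adipocyte differentiation and a partner in CARE binding, had 1741, 2239 and 1778 normalized counts in control and 1077, 1193 and 1656 in AKO. Its log2 fold change was -0.57 (95% interval -0.95 to -0.19), and it was called by DESeq2 (adjusted p = 0.0354) but not by limma (adjusted p = 0.414). Atf5, which encodes an ATF4-related factor linked to the mitochondrial unfolded protein response in mammals, had 5509, 7079 and 6614 in control and 4872, 5171 and 5323 in AKO. No AKO sample reached the lowest control, and the log2 fold change was -0.31 (limma adjusted p = 0.450, DESeq2 adjusted p = 0.0846). Vldlr, a lipoprotein receptor gene, Eif4ebp1, which encodes a brake on cap-dependent translation, and Gpt2, which encodes a mitochondrial alanine aminotransferase, had log2 fold changes of -0.16, -0.08 and -0.06.

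The secreted products of mitochondrial stress, Fgf21 and Gdf15, were singled out after their values were seen. Fgf21 had 9.03, 3.23 and 16.3 normalized counts in control and 22.1, 3.90 and 14.5 in AKO. Gdf15 had 10.0, 5.38 and 3.05 in control and 1.92, 2.93 and 5.79 in AKO, under the mean of 10 needed for testing. Fgf21 had a log2 fold change of 0.42 (95% interval -1.26 to 2.09, limma adjusted p = 0.913), and Gdf15 was not tested with limma.

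Amino acid transporters of the program had 7 of 9 genes tested, and Slc7a11 and Slc7a3 were too low. Only Slc1a4, a transporter of neutral amino acids, had a p under 0.05 before adjustment (9.10% of all genes did, in either direction). It had 59.2, 41.9 and 44.7 normalized counts in control and 67.2, 67.4 and 74.2 in AKO, higher in every AKO sample, with a log2 fold change of 0.52 (95% interval 0.11 to 0.94, limma adjusted p = 0.492). The more abundant Slc1a5, Slc3a2 and Slc38a2 had -0.03, -0.14 and 0.03, and Slc7a1 had 0.18. Differences were positive for 5 of the 7 with a median of 0.11, and limma, edgeR and DESeq2 called 0. Without AKO replicate 2 the median was -0.0002.

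Of 20 cytosolic aminoacyl-tRNA synthetases, which charge tRNAs, 2 were lower (4.69% of all genes) and 0 higher at an unadjusted p under 0.05. The median log2 fold change was -0.03. The largest difference was that of Gars, -0.20 (limma adjusted p = 0.473). Aars had -0.15, Tars -0.13 and Eprs 0.01. No member was higher in every AKO sample.

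Of 18 other enzymes of serine, proline and one-carbon metabolism, 3 were lower and 1 higher at an unadjusted p under 0.05. Aldh1l2, the mitochondrial formyltetrahydrofolate dehydrogenase and a known ATF4 target, had 37.1, 33.3 and 36.6 normalized counts in control and 71.1, 56.6 and 48.2 in AKO. It was higher in every AKO sample, with a log2 fold change of 0.68 (95% interval 0.23 to 1.14, limma adjusted p = 0.414, DESeq2 adjusted p = 0.583). Shmt1, the cytosolic counterpart of Shmt2, was lower in every AKO sample, with 174.6, 230.1 and 192.1 in control, 129.6, 158.2 and 152.3 in AKO and a log2 fold change of -0.43 (limma adjusted p = 0.454). Gcsh and Dld, which serve the glycine cleavage system, had -0.22 and -0.24, and Dld is also part of the TCA cycle complexes. Aldh1l1, the cytosolic counterpart of Aldh1l2, had -0.03. limma, edgeR and DESeq2 called 0 of the 18.

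**Figure D3:**
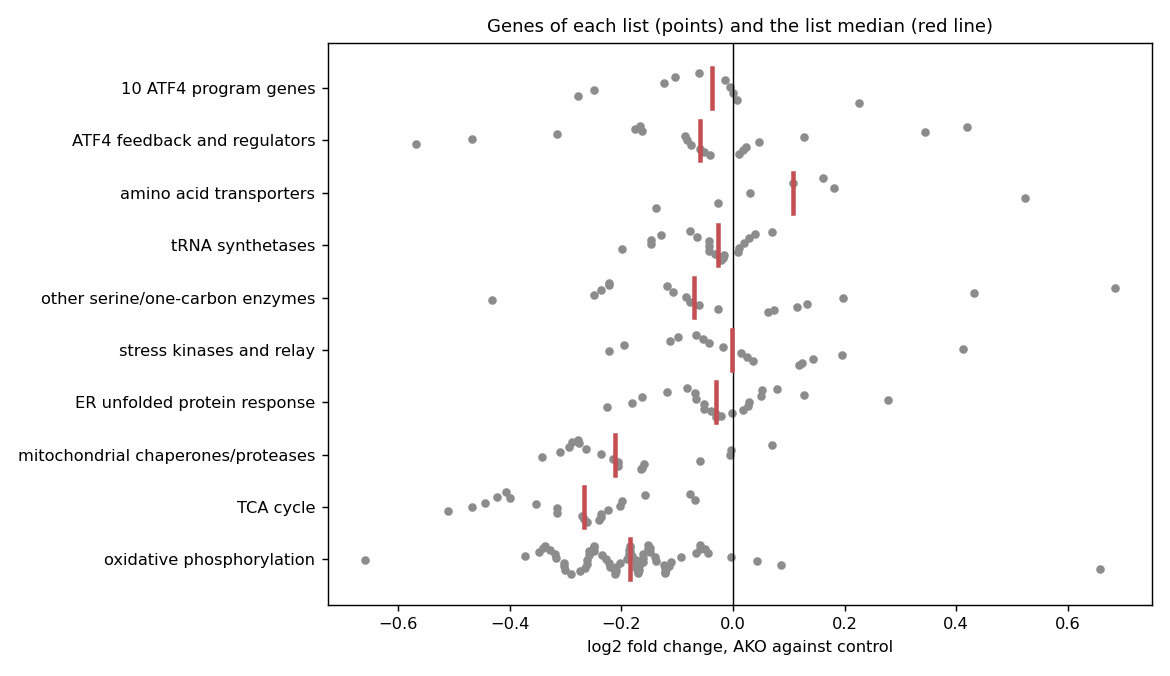
Log2 fold change of AKO against control (horizontal axis) for each tested gene of 10 lists (grey points), with the list median as a red line. The medians of the 10 ATF4 program genes, the 4 further ATF4 lists, the stress kinases and the ER unfolded protein response lie between -0.07 and 0.11, and those of the 3 mitochondrial lists between -0.27 and -0.18.

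The upstream arm had 16 genes for the eIF2α kinases, the relay from mitochondria and the eIF2 and eIF2B subunits. Its median log2 fold change was -0.00, and 0 were called by limma, edgeR or DESeq2. At an unadjusted p under 0.05, 1 was lower and 1 higher (9.10% of all genes in either direction). Eif2ak1, the gene of HRI, had 1427, 1487 and 1500 normalized counts in control and 1345, 1246 and 1266 in AKO. It was lower in every AKO sample, with a log2 fold change of -0.20 (95% interval -0.34 to -0.05, limma adjusted p = 0.450). Dele1, listed under its older symbol 0610009O20Rik, had -0.10 (limma adjusted p = 0.786), Eif2b4 had -0.22 and Eif2a had 0.04. Eif2s3x had 0.41 (limma adjusted p = 0.498) but is uncertain, since its near-identical copy on the Y chromosome could take or give reads. The genes of the other kinases and of OMA1, named after their values were seen, had 0.14 (Eif2ak2, PKR), 0.01 (Eif2ak3, PERK), -0.07 (Eif2ak4, GCN2) and 0.12 (Oma1). Kinase mRNA does not measure kinase activity or eIF2α phosphorylation.

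The endoplasmic reticulum (ER) arm shares Ddit3 with the mitochondrial one. Of 22 genes of the ER unfolded protein response, 0 were called by any of the 3 tools, and the median was -0.03. At an unadjusted p under 0.05, 2 were lower (4.69% of all genes) and 0 higher. The abundant chaperones Hspa5 (BiP), Hsp90b1 and Calr had log2 fold changes of -0.03, -0.00 and -0.08, the 95% interval of Hspa5 being -0.18 to 0.12. Dnajb9, a target of XBP1, had -0.23 (limma adjusted p = 0.414), Xbp1 itself had -0.18 and Pdia6 had -0.12.

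Mitochondrial chaperones and proteases, whose induction marks the mitochondrial unfolded protein response, had mostly negative differences. Of 18 genes tested, 13 were lower and 0 higher at an unadjusted p under 0.05 (4.69% of all genes were lower at that p). In 11 of the 18 every AKO sample was under every control sample (8.31% of all genes). Of the 18 differences, 17 were negative (6662 of 13855 over all genes). The median log2 fold change was -0.21. Without control replicate 2, the highest of its group for these genes, the median was -0.14. limma called 0 of the 18, edgeR called 0 and DESeq2 called 1, Dnaja3 (DESeq2 called 0.998% of all genes).

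Dnaja3, a co-chaperone of mitochondrial HSP70, had 2303, 2845 and 2398 normalized counts in control and 1967, 1921 and 2042 in AKO. Its log2 fold change was -0.34 (95% interval -0.54 to -0.14, limma adjusted p = 0.350, DESeq2 adjusted p = 0.0459). Hspa9, which encodes that HSP70, had 11765, 13730 and 12238 in control and 10304, 11244 and 9881 in AKO, and its log2 fold change was -0.26 (limma adjusted p = 0.464). Control replicate 2 was the highest sample of both genes, and no AKO sample reached a control sample. Clpx, a subunit of a matrix protease, had -0.31, Timm44, which tethers HSP70 to the import channel, -0.29, Phb2, a prohibitin, -0.21 and Trap1, the mitochondrial HSP90, -0.16.

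The genes most often used to read the mitochondrial unfolded protein response, named after their values were seen, had log2 fold changes of -0.22 (Hspd1), -0.28 (Hspe1), -0.21 (Lonp1), -0.17 (Clpp) and -0.29 (Afg3l2). Their limma adjusted p-values lay between 0.434 and 0.682. Ubl5, a small ubiquitin-like protein of the pathway in worms, was the only 1 of the 18 with a positive value, 0.07. An upper end of the 95% interval above 0.10 was reached only by Ubl5 (0.24), Yme1l1 and Htra2 (both 0.16) and Pitrm1 (0.13).

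**Figure D4:**
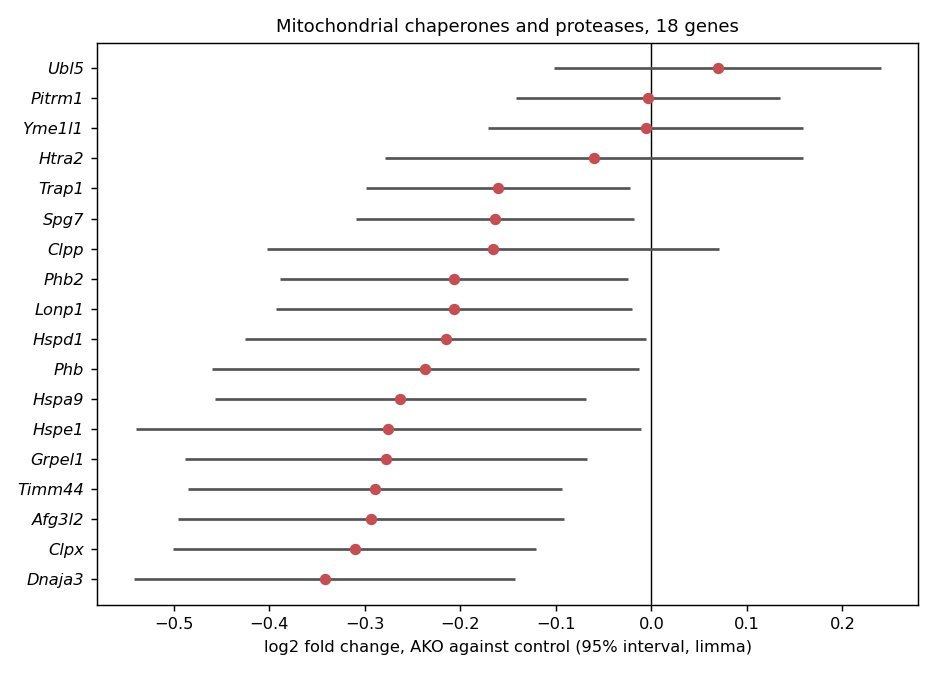
Log2 fold changes of AKO against control (horizontal axis; points) with 95% intervals from limma (lines) for 18 mitochondrial chaperone and protease genes, sorted by value. The values run from -0.34 for Dnaja3 to 0.07 for Ubl5, and 13 intervals lie wholly below 0.

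The respiratory genes behind the question also had mostly negative differences. All 21 genes tested of the TCA cycle and pyruvate dehydrogenase had a negative difference, with a median of -0.27. Of these, 16 were lower at an unadjusted p under 0.05 (4.69% of all genes). Without control replicate 2 the median was -0.22. limma called 0 of the 21 and edgeR 0, whereas DESeq2 called 8 (0.998% of all genes in either direction), all lower, among them Suclg1, Idh3a, Sucla2, Dlst and Ogdh. Suclg1, a subunit of succinyl-CoA ligase, had 3928, 4763 and 4025 normalized counts in control and 2973, 3042 and 3151 in AKO, for a log2 fold change of -0.47 (limma adjusted p = 0.205, DESeq2 adjusted p = 0.00018). Cs, citrate synthase, had -0.26 and was not called by any of them.

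Of 70 nuclear genes for oxidative phosphorylation subunits, 67 had a negative difference, with a median of -0.18. At an unadjusted p under 0.05, 23 were lower (4.69% of all genes) and 1 higher. DESeq2 called 2 (0.998% of all genes), Uqcrc2 (-0.34, DESeq2 adjusted p = 0.0132) and Ndufv1 (-0.34, DESeq2 adjusted p = 0.0187), where limma and edgeR called 0. Without control replicate 2, the highest of its group for these genes, the median was -0.10.

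The lists can be set side by side in single samples, as the median over genes of the log2 value minus the control mean. For TCA cycle genes this was -0.10, 0.17 and -0.08 in control and -0.35, -0.25 and -0.26 in AKO. For mitochondrial chaperones and proteases it was -0.07, 0.14 and -0.04 in control and -0.25, -0.18 and -0.19 in AKO. In both lists every AKO sample lay below every control sample. For oxidative phosphorylation the AKO samples, at -0.29, -0.17 and -0.12, reached into the control range of -0.17 to 0.17. For the 10 ATF4 program genes the values were -0.08, 0.04 and 0.05 in control and -0.06, -0.17 and 0.01 in AKO. The AKO sample with the lowest TCA cycle level, replicate 1, was the middle 1 of its group for the ATF4 program genes. These medians are a description of the 6 samples, and no difference between lists was tested.

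**Figure D5:**
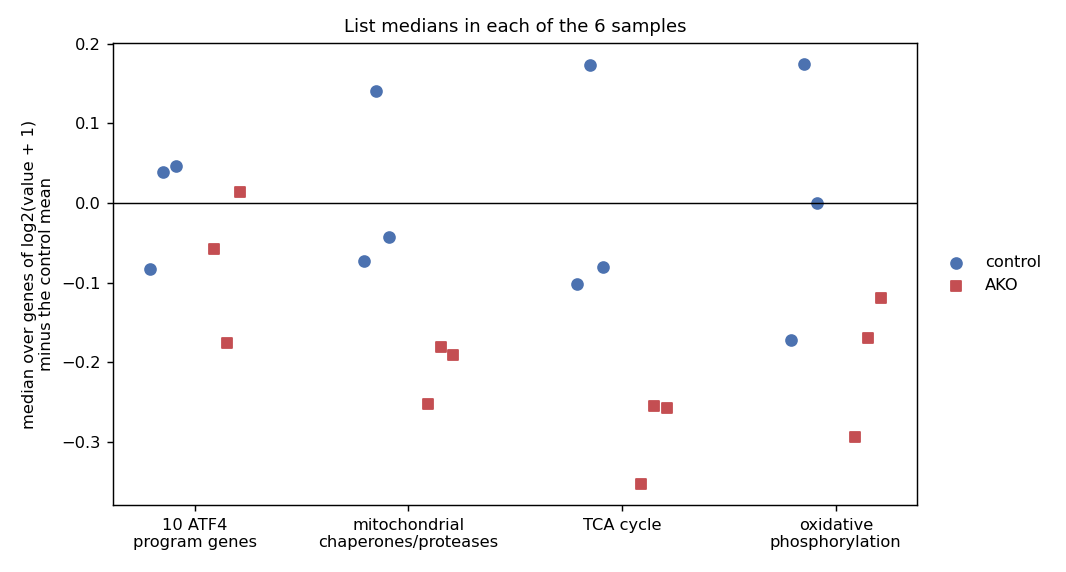
Median over the genes of a list of the log2(normalized count + 1) value minus the control mean (vertical axis), in each of the 3 control (circles) and 3 AKO samples (squares), for 4 lists. The AKO squares lie below all control circles for mitochondrial chaperones and proteases and for the TCA cycle, and among the circles for the 10 ATF4 program genes, apart from AKO replicate 2 at -0.17.

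Cell type markers are set beside these results. The summed level of 7 thermogenic adipocyte markers was 27631 to 39747 normalized counts in control and 11372 to 14847 in AKO. limma called 1 of the 7, Elovl3 (0.0144% of all genes), and DESeq2 called 6 (0.998% of all genes), all lower. None of the 7 was at 0. The sum of 20 skeletal muscle markers, a tissue rich in mitochondria, was higher in 2 of the 3 AKO samples than in any control sample. With the muscle score as a covariate in limma, the medians were -0.40 for the TCA cycle, -0.36 for oxidative phosphorylation, -0.30 for mitochondrial chaperones and proteases and -0.10 for the 10 ATF4 program genes, and 0 of the 10 were called. Macrophage markers summed to 10912 to 15382 in control and 13296 to 18327 in AKO, and progenitor and fibroblast markers to 34250 to 50121 and 41529 to 56160. None of these markers was at 0 in all samples. The part of thermogenic adipocytes, macrophages and progenitors in the levels of the ATF4 program was not tested.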

How the data were processed

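Total RNA of iWAT, pooled from 2 mice per sample, was sequenced in 3 control and 3 AKO samples, grouped by the genotype in their labels. The authors aligned reads with STAR to GRCm38.p6 (mm10 in the processing notes), counted them per gene with featureCounts on a GENCODE annotation and tested genotype with DESeq2. The deposited signal per gene and sample is a normalized count, that is reads scaled by the size factor of the sample, and the authors' fold changes and p-values in the same table were not used. Strand setting, the treatment of reads matching several genes and the filter that selected the 16538 genes are not given in the sources used here. The members and gene lists were chosen with earlier results of these data known.

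Values were whole multiples of the value of 1 read, so whole reads were recovered for 100% of them (tolerance 0.001 reads). Because the deposited values are normalized, limma (version 3.58.1, R 4.3.3) was run on log2(value + 1) with a variance trend, genotype as the only term and genes with a mean of at least 10, with Benjamini-Hochberg adjustment over 13855 genes and a threshold of 0.05. Fold changes on this scale understate those of low genes. edgeR (version 4.0.16) and DESeq2 (version 1.42.0) on recovered reads were alternatives, with pseudocounts of 0.1 and 10, other filters, TMM factors, a muscle covariate, the replicate number as a block and each sample left out. Single genes also had a 2-sided exact permutation test. Named genes were all members, Nrg4 and, of each other list, the 3 highest by mean, those called by limma or DESeq2 and up to 3 with the smallest p, some of which are not reported here. The tests were tested on simulated data first. No pair of samples in a group was alike within counting noise (lowest chi-square over its degrees of freedom, 10.4). Positions and exon lengths are those of GENCODE M21 on GRCm38.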

Additional observations from a re-analysis of the deposited data

How the results depend on the processing

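None of the 10 genes was called by limma, edgeR or DESeq2 under any of the 16 alternatives, and Ddit3 kept a negative difference in all of them (-0.30 to -0.21, adjusted p from 0.426 to 0.974). With each sample left out, the log2 fold change of Atf4 ranged from -0.0983 to -0.0017 and that of Asns from -0.1876 to -0.0531. The sign of 6 of the 10 changed under some alternatives. With the muscle covariate the log2 fold change was -0.12 for Trib3, -0.019 for Psat1 and 0.0716 for Phgdh, and with TMM factors that of Phgdh was 0.0035 (limma) or 0.0069 (edgeR). With each sample left out it ranged from -0.0957 to 0.0931 for Trib3, -0.60 to 0.0721 for Chac1, -0.0409 to 0.0866 for Psat1, -0.096 to 0.0782 for Phgdh, -0.37 to 0.0682 for Mthfd2 and -0.0734 to 0.0992 for Shmt2. The cause was not tested.

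Over all genes, limma called 2. DESeq2 called 149 (113 lower, 36 higher), edgeR with RLE factors 5, edgeR with TMM 3, limma on genes with at least 10 reads in every sample 6, and limma with the muscle covariate 0. Leaving out 1 sample gave 0 to 3 calls, 3 without control replicate 2 and 0 without any of the other 5. Within the lists other than the members and markers, DESeq2 called 12 genes, all lower, where limma called 0. With the muscle covariate the medians moved to -0.0788 for tRNA synthetases, -0.15 for the other serine and one-carbon enzymes, -0.0485 for the stress kinases, -0.40 for TCA cycle genes and -0.36 for oxidative phosphorylation. Leaving out 1 sample moved the median of the amino acid transporters between -0.0002 and 0.12 and that of the ER genes between -0.0367 and 0.0037.

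The replicate numbers did not pair the samples: deviations of same-numbered samples correlated at 0.135, -0.351 and 0.24 across genes. With the replicate block limma called 2 of all genes and 0 of the 10, so the count of calls did not move, but both calls were higher in AKO, and Elovl3, lower and called without the block, was not called. Among the 10 genes, depth limits Atf3 and Mthfd2 most, since they rest on the fewest reads.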

Other observations

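Immediate early genes, a list that responds within minutes to handling and dissection and with which Atf3 is often grouped, had 13 of 15 positive differences and a median log2 fold change of 0.15. None was called by limma, edgeR or DESeq2, and none had an unadjusted p under 0.05. Klf6, the most abundant, had 2058, 1551 and 2113 normalized counts in control and 2711, 1869 and 2541 in AKO (log2 fold change 0.31, limma adjusted p = 0.621). Jun had 0.18, Egr2 0.28, Klf4 0.14 and Zfp36 0.05. Dusp1, singled out after its values were seen, reached 2531 in AKO replicate 3, where the other 5 samples lay between 777 and 1468. The list median by sample was 0.01, -0.04 and 0.09 in control and 0.18, 0.00 and 0.38 in AKO, and it was 0.04 over the contrast without AKO replicate 3 and 0.27 without AKO replicate 2. With the muscle score as a covariate it was 0.0196. Atf3 was highest in AKO replicate 1 and not in AKO replicate 3.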
